A study of Mus musculus with 12 samples.

Results

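The phagocyte NADPH oxidase is the enzyme with which neutrophils and macrophages make superoxide, and 5 genes that encode its parts were followed here: Cybb, Cyba, Ncf1, Ncf4 and Rac2. They were taken from the deposited expression table by gene symbol, and all 5 were found among its 19852 entries. Total RNA had been sequenced from livers of C57BL/6 mice aged 20 weeks, in 12 libraries that form 4 groups of 3: female WT, female ARE-Del, male WT and male ARE-Del. ARE-Del mice lack an AU-rich element in the Ifng gene, which normally destabilises the interferon gamma message, and make interferon gamma chronically. The WT mice were control littermates, and the labels name no further allele or treatment in any group. The protocol text writes the genotype as ARE-Del-/- and stands in the same words on every library, WT included, so the groups were taken from the genotype labels. The labels do not say how many animals gave the 3 libraries of a group, so each p-value measures the spread between these libraries only. The study asked how the sexes differ in their hepatic response to the allele.

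The oxidase is assembled from 2 compartments. Cybb encodes gp91phox (NOX2), the membrane subunit that passes electrons from NADPH to oxygen, and Cyba encodes p22phox, its stabilising membrane partner, which also serves several other NOX enzymes. Ncf1 encodes p47phox, the cytosolic organizer that docks on p22phox after phosphorylation, Ncf4 encodes p40phox, a lipid-binding cytosolic subunit, and Rac2 encodes the small GTPase of blood cells that joins the active complex. Rac1, the broadly expressed relative of Rac2, was followed beside them. In liver the complex is best known from Kupffer cells, the resident macrophages, and from infiltrating monocytes and neutrophils. Interferon gamma is a classical inducer of the oxidase in phagocytes.

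Sequence upstream of the transcription start is shown first, because interferon acts on genes through short promoter motifs. RefSeq promoter windows (build GRCm38.p6, not the mm9 build named for the expression table) were matched by symbol for 3 of the 5 genes, and Ncf4 and Rac2 were not matched. The 250 bases before the start are printed 5′ to 3′ on the strand of the gene. All 3 genes lie on the minus strand, Cybb at chrX:9469325-9469574, Ncf1 at chr5:134229626-134229875 and Cyba at chr8:122432941-122433190. Capitals mark matches on either strand to the pattern of the interferon-stimulated response element, GAAA and GAAA with any 2 bases between them, and to that of the gamma-activated sequence, TTC and GAA with any 3 bases between them.
Cybb: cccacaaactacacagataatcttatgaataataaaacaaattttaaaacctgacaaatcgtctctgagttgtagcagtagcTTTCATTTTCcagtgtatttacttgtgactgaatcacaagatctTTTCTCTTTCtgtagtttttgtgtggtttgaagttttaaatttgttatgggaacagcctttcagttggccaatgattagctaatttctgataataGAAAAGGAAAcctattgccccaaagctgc
Ncf1: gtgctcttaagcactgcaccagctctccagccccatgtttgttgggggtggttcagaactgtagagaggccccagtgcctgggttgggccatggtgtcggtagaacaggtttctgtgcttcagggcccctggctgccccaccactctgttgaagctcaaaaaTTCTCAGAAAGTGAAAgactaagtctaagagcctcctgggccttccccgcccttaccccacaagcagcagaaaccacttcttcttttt
Cyba: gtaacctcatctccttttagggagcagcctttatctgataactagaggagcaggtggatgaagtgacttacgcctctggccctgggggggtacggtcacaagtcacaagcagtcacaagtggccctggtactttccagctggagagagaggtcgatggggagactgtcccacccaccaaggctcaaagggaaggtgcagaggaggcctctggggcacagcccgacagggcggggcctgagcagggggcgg
The Cybb window held 3 matches to the response element pattern, at 168 to 159, 124 to 115 and 29 to 20 bases before the start. In the Ncf1 window a match to the gamma-activated pattern, at 88 to 80 bases before the start, overlapped one to the response element pattern at 82 to 73 bases. The Cyba window matched neither pattern. Over all 32851 windows of the same length in the table, 2.98% held the response element pattern and 7.02% the gamma-activated pattern. The ETS core GGAA, to which PU.1 binds, was found 2 times for Cyba, 3 times for Cybb and once for Ncf1, but 93.4% of all windows held it. A longer form of the PU.1 site, AGAG followed directly by GAAG, was in none of the 3 windows and in 3.67% of all. In Cybb, 2 of the GGAA cores overlap a response element match. GC content was 34% for Cybb, 54.4% for Ncf1 and 60% for Cyba. These matches describe letters and are not shown to be bound, and a window without a match says nothing about the factor.

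Summed RPKM, the reads per gene scaled to gene length and to the library's reads, ran from 173476 to 208647 per library. Read totals were not used here, and relative depth, estimated from the steps between low values, ran from 0.904 to 1.46 times that of female WT 1. Replicates correlated across genes at 0.988 to 0.994 within every group. The hepatocyte markers, Alb first, were abundant in every library (summed RPKM 22145 to 40685), and liver is the tissue named in the labels. Alb alone made up 8.56% to 16.5% of the summed RPKM of a library. Ifng itself lay below the filter used for testing: it was 0.0138 ± 0.00612 RPKM in WT and 0.178 ± 0.0782 in ARE-Del females, and 0.0127 ± 0.0221 in WT and 0.0982 ± 0.0241 in ARE-Del males (SD, n = 3). The library labelled female ARE-Del 2 had 0.0456 RPKM of Xist, against 33.0 to 45.6 in the other 5 female libraries, while Ddx3y was at 0 in all 6 female libraries. Its subunit values are given within the group below, and the calls were repeated without it.

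Expression of all 5 oxidase genes was higher in ARE-Del liver in both sexes, 4.32-fold to 6.53-fold in females and 3.50-fold to 3.92-fold in males by the ratio of mean RPKM. The groups kept the order female ARE-Del, male ARE-Del, female WT and male WT for every subunit. For testing, log2(RPKM + 1) was fitted across all genes with limma, and calls were made at a Benjamini-Hochberg adjusted p below 0.05 over the 10568 genes with at least 0.5 RPKM in at least 3 libraries. In females 5 of 5 were called higher, beside 25.8% of all tested genes, and in males 5 of 5, beside 19.5%. Both calls were made for 15.3% of tested genes. In each of the 5 genes every one of the 6 ARE-Del values exceeded every one of the 6 WT values, which held for 14.5% of tested genes. Cybb, Cyba and Rac2 reached 0.5 RPKM in all 12 libraries and Ncf1 in 11, whereas Ncf4 reached it in 7, 6 of them ARE-Del, so that Ncf4 passed the filter through the groups in which it was high. All 5 calls in each sex held under each of 20 other settings, among them the fit without female ARE-Del 2.

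**Figure D1:**
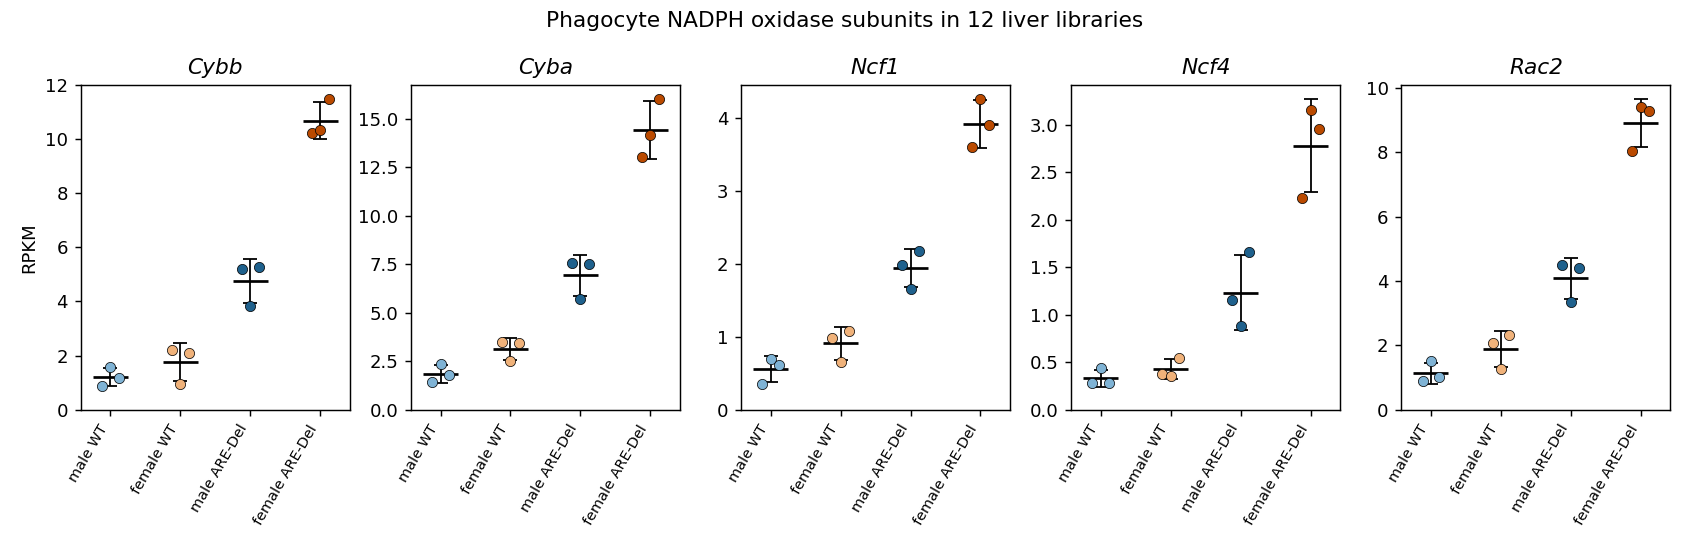
RPKM (y axis, linear from 0, a separate scale for each gene) of the 5 oxidase subunits in each of 12 liver libraries, by group along the x axis; points are libraries, horizontal bars the mean and whiskers the SD of 3 libraries. The 6 ARE-Del points lie above the 6 WT points in every panel, with female ARE-Del highest.

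The catalytic subunit had the largest log2 change of the 5 in females. Cybb was at 2.22, 0.944 and 2.10 RPKM in female WT 1 to 3 and at 10.2, 10.3 and 11.5 in female ARE-Del. In males it was at 0.889, 1.57 and 1.19 RPKM in WT and at 5.18, 3.82 and 5.27 in ARE-Del. The lowest ARE-Del library of either sex thus lay above the highest WT library. The log2 change was 2.12 ± 0.178 in females (SE, n = 3 per group, limma adjusted p = 2.43e-06) and 1.38 ± 0.178 in males (adjusted p = 1.97e-04). As ratios of means these were 6.09-fold and 3.92-fold.

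Its membrane partner was the most abundant subunit by RPKM in all 12 libraries. Cyba stood at 3.47, 2.49 and 3.42 RPKM in female WT and at 13.1, 14.2 and 16.0 in female ARE-Del. Male livers had 1.43, 2.36 and 1.80 RPKM in WT and 7.57, 5.70 and 7.52 in ARE-Del. None of the 4 groups overlapped with another, as for 2.21% of tested genes in this order. Cyba rose by 1.91 ± 0.140 log2 units in females (limma adjusted p = 1.0e-06), a 4.61-fold difference of means, and by 1.47 ± 0.140 in males (adjusted p = 2.12e-05), a 3.72-fold difference.

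The cytosolic organizer gene was less abundant and moved the same way. Ncf1 was at 0.984, 0.656 and 1.09 RPKM in female WT and at 3.60, 4.26 and 3.91 in female ARE-Del, a 4.32-fold difference of means. In males, values of 0.350, 0.695 and 0.617 RPKM in WT stood beside 1.99, 1.65 and 2.17 in ARE-Del, a 3.50-fold difference. Only the 2 WT groups overlapped. The log2 changes were 1.37 ± 0.108 in females (limma adjusted p = 1.55e-06) and 0.92 ± 0.108 in males (adjusted p = 9.50e-05). Near or below 1 RPKM the added 1 makes the log2 change smaller than the log2 of the ratio of means, so for Ncf1, and more so for Ncf4, the ratio is the larger figure.

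Ncf4 was the least abundant of the 5 in every library. It read 0.380, 0.353 and 0.545 RPKM in female WT and 2.22, 3.16 and 2.95 in female ARE-Del. Male WT livers gave 0.279, 0.434 and 0.282 RPKM and male ARE-Del livers 1.15, 0.881 and 1.66. Again the ARE-Del libraries of each sex lay wholly above both WT groups, which overlapped with each other. Ncf4 rose by 1.40 ± 0.123 log2 units in females (limma adjusted p = 3.41e-06), 6.53-fold by means, and by 0.73 ± 0.123 in males (adjusted p = 0.00121), 3.71-fold by means.

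The GTPase subunit stood below Cyba and near Cybb in abundance. Rac2 was at 2.07, 1.26 and 2.33 RPKM in female WT and at 8.06, 9.40 and 9.28 in female ARE-Del. Males had 0.883, 1.51 and 1.02 RPKM in WT and 4.49, 3.34 and 4.41 in ARE-Del. Every ARE-Del value exceeded every WT value. The log2 changes were 1.80 ± 0.150 in females (limma adjusted p = 2.32e-06), 4.73-fold by means, and 1.25 ± 0.150 in males (adjusted p = 1.12e-04), 3.59-fold by means. Within the male ARE-Del group, replicate 2 was the lowest library for all 5 subunits.

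**Figure D2:**
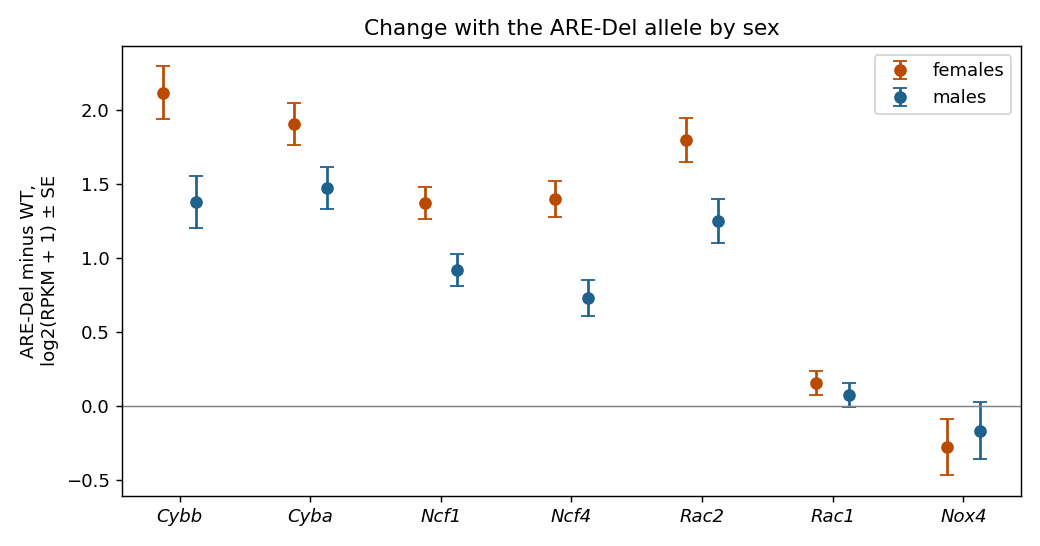
Log2 change of RPKM + 1 between ARE-Del and WT (y axis, ± SE from limma, 3 libraries per group) for the 5 subunits and for Rac1 and Nox4 along the x axis, females and males side by side. The 5 subunits lie above 0 in both sexes, whereas Rac1 and Nox4 lie near 0.

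Rac1, the relative of Rac2, was not called for genotype in either sex. It ran from 8.12 to 10.1 RPKM in WT and 9.75 to 11.1 in ARE-Del females, and from 8.67 to 9.34 in WT and 9.44 to 9.54 in ARE-Del males. Its log2 change was 0.16 ± 0.0798 in females (adjusted p = 0.158) and 0.07 ± 0.0798 in males (adjusted p = 0.547), and the male value turned to -0.08 with median-of-ratios scaling and to -0.06 with quantile normalization.

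Because Rac2 rose beside a Rac1 level that was not called, the proportion of the 2 GTPases differed widely between groups. Rac2 over Rac1, by RPKM, was 0.200 ± 0.0425 in WT and 0.854 ± 0.102 in ARE-Del females, and 0.127 ± 0.0408 in WT and 0.430 ± 0.0695 in ARE-Del males (SD, n = 3). In all 12 libraries Rac1 remained the higher of the 2, with Rac2 closest to it in female ARE-Del 2, at a ratio of 0.965. How reads shared by these related genes were assigned is not given in the sources used here.

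Nox4, a NOX catalytic subunit that works with p22phox but needs no cytosolic organizer, showed another pattern. It was at 1.68, 0.701 and 2.22 RPKM in WT and at 1.26, 0.627 and 1.24 in ARE-Del females, and at 5.43, 5.06 and 4.95 in WT and 4.26, 4.31 and 4.88 in ARE-Del males. Males were therefore above females at either genotype, the reverse of the order of means of the oxidase subunits. Among WT livers, Cyba was the only subunit called for sex. Nox4 was not called for genotype in females (-0.28 ± 0.191, limma adjusted p = 0.296) or males (-0.17 ± 0.191, adjusted p = 0.570). The ratio of Cybb to Nox4 RPKM was 1.21 ± 0.226 in WT and 11.3 ± 4.55 in ARE-Del females, and 0.238 ± 0.0729 in WT and 1.06 ± 0.166 in ARE-Del males (SD, n = 3). Cybb was thus below Nox4 in all 3 male WT libraries and above it in all 3 female ARE-Del libraries. Of the other NOX and DUOX enzymes and organizers on the list, 5 more were matched and none passed the filter.

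**Figure D3:**
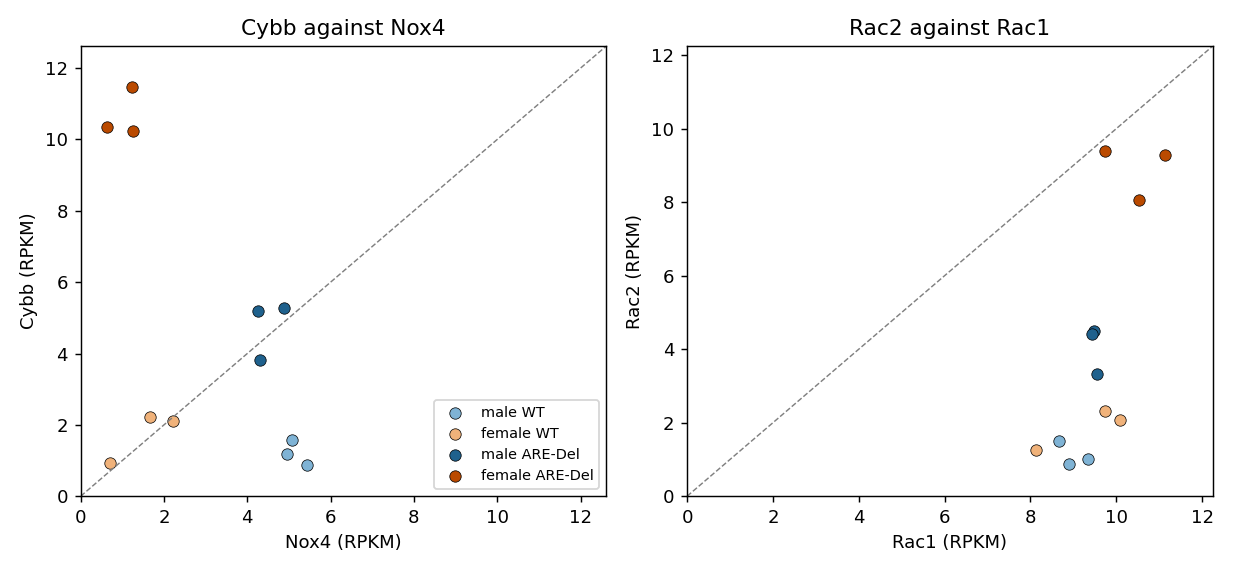
RPKM of Cybb against Nox4 (left) and of Rac2 against Rac1 (right) in the 12 libraries, colored by group; the dashed line marks equal RPKM. Female ARE-Del libraries lie far above the line for Cybb and Nox4, male WT libraries below it, and all 12 libraries lie below it for Rac2 and Rac1.

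Sex differences in the subunits were wide among ARE-Del livers. All 5 were called higher in female than in male ARE-Del liver, beside 16.4% of tested genes, with log2 differences of 1.03 ± 0.178 for Cybb (limma adjusted p = 0.00162), 0.96 ± 0.140 for Cyba (5.76e-04), 0.75 ± 0.108 for Ncf1 (5.58e-04), 0.77 ± 0.123 for Ncf4 (0.00102) and 0.97 ± 0.150 for Rac2 (8.30e-04). In RPKM the female ARE-Del mean was 2.02 to 2.26 times the male one, and the lowest female library lay above the highest male library for each gene, as for 26.7% of tested genes. Among WT livers 1 of 5 was called higher in females, beside 6.72% of tested genes. That gene was Cyba, at 0.53 ± 0.140 (adjusted p = 0.0331) and 1.68-fold by means. Differences for the others were 0.29 ± 0.178 for Cybb (adjusted p = 0.332), 0.30 ± 0.108 for Ncf1 (0.109), 0.10 ± 0.123 for Ncf4 (0.665) and 0.42 ± 0.150 for Rac2 (0.101). These WT calls rested on single libraries. The Cyba call was lost without female WT 1 (adjusted p = 0.120), female WT 3 (0.0992), male WT 1 (0.149) or male WT 3 (0.0877), while without female WT 2, the lowest female WT library, Cybb, Cyba, Ncf1 and Rac2 were all called.

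Whether the allele changed the subunits more in one sex was tested as an interaction. The log2 change was larger in females for all 5, by 0.74 ± 0.252 for Cybb (limma adjusted p = 0.242), 0.43 ± 0.198 for Cyba (0.427), 0.45 ± 0.152 for Ncf1 (0.240), 0.67 ± 0.174 for Ncf4 (0.113) and 0.55 ± 0.212 for Rac2 (0.325). By limma, 0 of 5 passed the adjusted threshold, beside 0.568% of tested genes in either direction, although all 5 had an unadjusted p below 0.05, from 0.00231 to 0.0491, as had 11.6% of tested genes. Without male ARE-Del 3, Ncf4 was called (0.80 ± 0.150, adjusted p = 0.0410). A larger female effect on the subunits was therefore not called with 3 libraries per group, nor do these p-values show that the sexes responded alike.

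The proportions of the 5 subunits differed between groups by a few percentage points, and their sum several-fold. Their summed RPKM was 8.10 ± 2.09 in WT and 40.7 ± 3.27 in ARE-Del females, and 5.10 ± 1.37 in WT and 18.9 ± 3.08 in ARE-Del males (SD, n = 3). Cyba made up 39.3%, 35.4%, 36.7% and 36.6% of that sum in the same order of groups, and Rac2 23.1%, 21.9%, 22.3% and 21.6%. Cybb took 21.0% in female WT and 26.3%, 23.7% and 25.1% in the others. Ncf1 contributed 9.65% to 11.3% and Ncf4 5.37% to 6.80%. The order Cyba, Cybb, Rac2, Ncf1, Ncf4 held in 10 of 12 libraries, with Rac2 above Cybb in female WT 2 and 3.

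All 10 ratios between 2 subunits were compared between genotypes within sex, on log2 of RPKM + 0.1, by a two-sided exact permutation test over 400 arrangements, whose smallest p is 0.005. As a mean of the sexes, Cybb rose more than Ncf1 by 0.42 log2 units (exact p = 0.005, adjusted over 10 pairs 0.05), than Rac2 by 0.26 (exact p = 0.01, adjusted 0.05) and than Cyba by 0.25 (exact p = 0.015, adjusted 0.05). These shifts were larger in females, at 0.605, 0.401 and 0.444, than in males, at 0.231, 0.128 and 0.0497. None of the 10 passed below 0.05 after adjustment, and 3 had an exact p below 0.05 before it. Alone at the smallest p, a pair adjusts to exactly 0.05 over 10 pairs. A single pair could therefore not pass, whatever its shift. The 3 largest shifts were in ratios of Cybb, whose share of the summed RPKM was lowest in female WT 2 (16.6%) and female WT 3 (22.2%). With 1 as the pseudocount 8 pairs passed, and without male WT 1 5 did.

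Signs of more leukocyte RNA ran alongside. All 8 pan-leukocyte markers were called higher in ARE-Del in females (median log2 change 1.58) and in males (1.17), where the median over all tested genes was 0.09 and 0.10, and the subunits' own medians were 1.80 and 1.25. Their summed RPKM ran from 16.7 to 26.7 in WT and 88.3 to 103 in ARE-Del females, and from 13.7 to 18.5 in WT and 39.0 to 51.3 in ARE-Del males. This is the order of groups seen for the subunits. All 8 markers were also called higher in female than in male ARE-Del liver, as were 16.4% of tested genes. Calls higher in ARE-Del in both sexes were made for 15.3% of tested genes. In such bulk tissue, more cells of a type and more RNA per cell cannot be told apart, and the part of leukocyte content in the subunit changes was not tested.

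Ptprc, which encodes the leukocyte surface phosphatase CD45, gave a within-library reference. Rac2 over Ptprc was 2.38 ± 0.0757 in WT and 2.38 ± 0.116 in ARE-Del females, and 2.34 ± 0.0774 in WT and 2.44 ± 0.137 in ARE-Del males (SD, n = 3), with all 12 libraries between 2.28 and 2.59. Ncf1 over Ptprc had means of 1.16, 1.05, 1.14 and 1.16 in that order of groups, and Cyba over Ptprc of 4.07, 3.84, 3.86 and 4.15. For these 3 subunits the ranges of the ratio overlapped between WT and ARE-Del in both sexes, whereas those of their RPKM did not. Cybb over Ptprc had means of 2.16 ± 0.353, 2.86 ± 0.298, 2.50 ± 0.202 and 2.84 ± 0.164, and in females its 3 ARE-Del libraries (2.59 to 3.18) lay above its 3 WT libraries (1.78 to 2.48). Ncf4 over Ptprc had means of 0.556 ± 0.122, 0.735 ± 0.050, 0.686 ± 0.0407 and 0.727 ± 0.151. The choice of reference mattered. Of the 10 combinations of subunit and sex, ARE-Del lay wholly above WT in 2 against each of Ptprc, Emr1, Csf1r and Coro1a, and in 6 against Cd68, a macrophage marker. The same share over all tested genes was not computed, so these counts do not set the subunits apart from other genes. Against Cd68 the Rac2 ratio ran from 0.289 to 0.364 in WT and 0.389 to 0.400 in ARE-Del females, and from 0.263 to 0.324 in WT and 0.340 to 0.388 in ARE-Del males. Cyba over Cd68 overlapped in females and not in males (0.466 to 0.515 in WT, 0.574 to 0.662 in ARE-Del). These ratios are described and were not tested.

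**Figure D4:**
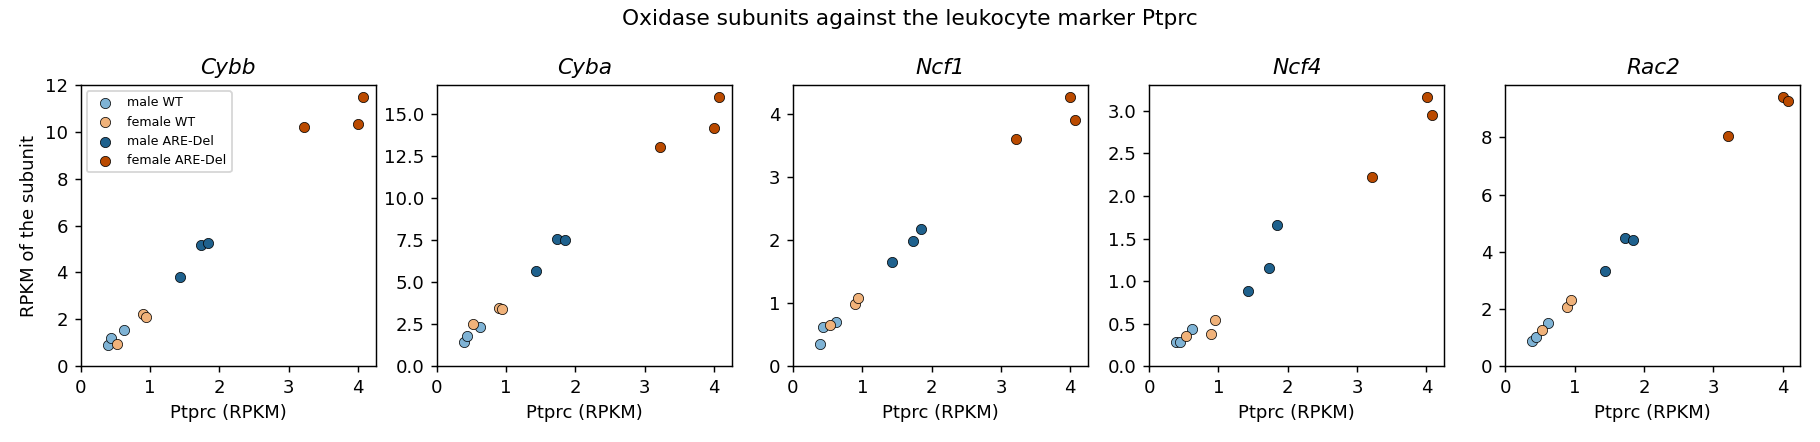
RPKM of each oxidase subunit (y axis, a separate linear scale for each gene) against RPKM of the leukocyte marker Ptprc (x axis) in 12 liver libraries, colored by group. Points of the 4 groups lie close to one line through the origin for Rac2, at a ratio of 2.28 to 2.59, with female ARE-Del at the upper end.

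Phagocyte markers moved with the subunits to different extents. For all tested genes the shares called higher were 25.8% in females and 19.5% in males, and those called lower 5.53% and 2.04%. Of the monocyte and macrophage markers, 11 of 11 tested were called higher in females (median 1.63) and 10 in males (0.95). Of these 11, Ccr2, Cx3cr1, Itgax and Ms4a7 passed the filter only through ARE-Del libraries, and the other 7 were called higher in both sexes. Their summed RPKM, over all 12 matched, was 25.4 to 42.2 in WT and 201 to 250 in ARE-Del females, and 17.4 to 33.2 in WT and 117 to 145 in ARE-Del males. In the interaction 2 of the 11 were called by limma, beside 0.568% of all tested genes in either direction. These were Ms4a7 (0.50 ± 0.0779, adjusted p = 0.0212) and Itgax (1.02 ± 0.186, adjusted p = 0.0420), both larger in females. Whether these 2 calls hold under other settings was not examined. Kupffer cell markers were called higher for 10 of 12 in females, with 1 called lower, and for 9 of 12 in males; their medians were 1.16 and 1.38, and none of the 12 was called by limma in the interaction. Neutrophil markers were low, with 3 of 10 matched tested. S100a8, a calgranulin, was called higher in females (0.94 ± 0.269, limma adjusted p = 0.0180) and not in males (adjusted p = 0.753). Csf3r, the G-CSF receptor, was called in both sexes (adjusted p = 1.12e-04 and 0.0211), having passed the filter with ARE-Del libraries. The male Csf3r call was lost in 6 of 20 other settings, and the female S100a8 call in 5. S100a9 was not called (adjusted p = 0.0524 and 0.471). Of all 10 matched, 9 had a higher mean in ARE-Del females than in WT females and 8 in ARE-Del males than in WT males. Among those below the filter, Retnlg had means of 0.156 and 0.593 RPKM in WT and ARE-Del females and of 0.0597 and 0.178 in WT and ARE-Del males, while Mmp9 had 0.164 and 0.163, and 0.163 and 0.110. The summed RPKM (2.11 to 6.39 in WT and 5.34 to 14.1 in ARE-Del females, 1.49 to 3.93 in WT and 2.65 to 6.17 in ARE-Del males) overlapped between genotypes in both sexes. Mpo, a defining neutrophil granule gene, was at 0 in all 3 female WT and all 3 male ARE-Del libraries and at most 0.0708 RPKM elsewhere. Camp, another granule gene, was at 0 in all 3 male WT libraries and reached 0.177 and 0.0719 RPKM in 2 of 3 female ARE-Del libraries, 0.0753 in female WT 3 and 0.0349 in male ARE-Del 1. Of the lymphoid markers tested, 5 of 5 for T cells and 4 of 4 for NK cells were called higher in females, and 4 and 3 in males. All 9 needed ARE-Del libraries to pass the filter. B and plasma cell markers were called higher for 2 of 4 tested in each sex (medians 0.36 and 0.31), and 2 of these 4 needed ARE-Del libraries. Of 8 hepatocyte markers 1 was called higher in females and 3 in males. The part of any of these cell types in the subunit levels was not tested.

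Likeness to other genes was measured as the root mean square difference between log2(RPKM + 1) profiles over the 12 libraries, each centred on its own mean, so a small value means a close profile in shape and size. Treml4, Pld4 and Laptm5 were closest to Cybb (0.0879, 0.0982 and 0.110), and Laptm5, Slfn2 and Slc11a1 to Cyba (0.0696, 0.0887 and 0.101). Nearest to Ncf1 were Ifi30, Ptprc and Cd300a (0.0642, 0.0666 and 0.0723), to Ncf4 Asb2, Csf2ra and Selplg (0.0937, 0.0952 and 0.102), and to Rac2 Slc11a1, Lcp2 and Pkm2 (0.0610, 0.0860 and 0.0892). Between subunits the closest pair was Cyba and Rac2 (0.110) and the farthest Cybb and Ncf4 (0.404), a distance that includes the smaller log2 range of low genes. The profiles share the group structure and the scaling of the 12 libraries.

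Genes that assemble and activate the complex were examined next. Of 26 listed partners 23 were matched and 19 tested, and 17 were called higher in females (median 0.95) and 15 in males (0.52), with none called lower, beside 5.53% of all tested genes called lower in females and 2.04% in males. Among all tested genes, 25.8% were called higher in females and 19.5% in males. Of the 19 partners, 10 needed ARE-Del libraries to pass the filter, among them Fgr, Vav1 and Hvcn1. Of the other 9, 7 were called higher in females and 6 in males. Fgr, a SRC-family kinase of myeloid cells, rose by 1.31 log2 units in females and 0.63 in males. Arhgdib, a blood cell protein that holds Rac2 in the cytosol, rose by 1.53 and 1.16, and Vav1, a guanine nucleotide exchange factor for Rac, by 1.25 and 0.69. Arhgdib is also among the pan-leukocyte markers. Hvcn1, the proton channel that offsets the charge moved by the oxidase, was called in females (0.56 ± 0.0941, limma adjusted p = 6.33e-04) and not in males (0.25, adjusted p = 0.0769). Rap1a, a small GTPase found with the membrane subunits, was not called in females (-0.18, adjusted p = 0.128) or males (-0.08, adjusted p = 0.521).

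Transcription factors known at oxidase gene promoters were called higher for 10 of 13 tested in females (median 0.54), with 2 lower, and for 8 of 13 in males (0.35). The shares of all tested genes called higher were 25.8% in females and 19.5% in males, and 5.53% were called lower in females. Without Irf8, the 1 factor that needed ARE-Del libraries to pass the filter, 9 and 7 of 12 factors were called higher. Irf1, an interferon-induced factor, rose by 1.39 log2 units in females and 1.59 in males. Spi1, which encodes the myeloid factor PU.1 and is listed as Sfpi1, rose by 1.63 and 1.23, and its partner Irf8 by 1.43 and 0.95. The difference between the sexes in this change was called for none of the 13 by limma. The 2 called lower in females were Cebpa (-0.35, limma adjusted p = 0.0328) and Cebpe (-0.42, adjusted p = 0.0140), named here after their values were seen.

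Genes listed under superoxide and peroxide removal, not all of which act on these directly, showed no common direction. Of 20 tested, 3 were called higher and 3 lower in females, and 5 higher and none lower in males, with medians of 0.07 and 0.10. Over all tested genes, 25.8% were called higher and 5.53% lower in females, and 19.5% and 2.04% in males. Hmox1, heme oxygenase, which acts on heme and was counted as listed, rose by 2.32 in females and 1.53 in males. Sod3, the extracellular superoxide dismutase, rose by 1.05 and 1.15, and Gpx3, a secreted glutathione peroxidase, by 0.67 and 0.55. Cat, the peroxisomal catalase, fell by 0.38 in females (limma adjusted p = 0.0111), and its male change was -0.14 (adjusted p = 0.350). The enzymes that make NADPH, the electron donor of the oxidase, were divided too, with 2 higher and 2 lower of 9 in females and 3 higher and 1 lower in males. G6pdx and Pgd, of the pentose phosphate pathway, rose by 1.08 and 0.53 in females and 0.90 and 0.41 in males. Me1, cytosolic malic enzyme, listed as Mod1, fell by 1.60 and 0.91, and Idh1, the cytosolic isocitrate dehydrogenase, fell by 0.29 in females, with -0.05 in males (adjusted p = 0.728). Of 20 other settings, the male Pgd call was lost in 7, the female Idh1 call in 5, the male Me1 call in 2 and the female Cat call in 1.

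Among other phagocyte microbicidal genes, 3 of 8 matched passed the filter and all 3 were called higher in both sexes, beside 15.3% of tested genes. Mpeg1, which encodes the pore-forming perforin-2, rose by 2.85 log2 units in females and 2.84 in males, and is also among the monocyte and macrophage markers. Slc11a1, the phagosomal metal transporter, rose by 1.87 and 1.35, and Acod1, which makes itaconate and is listed as Irg1, by 1.35 and 0.65. Acod1 did not reach 0.5 RPKM in any WT library and was tested only through ARE-Del libraries.

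**Figure D5:**
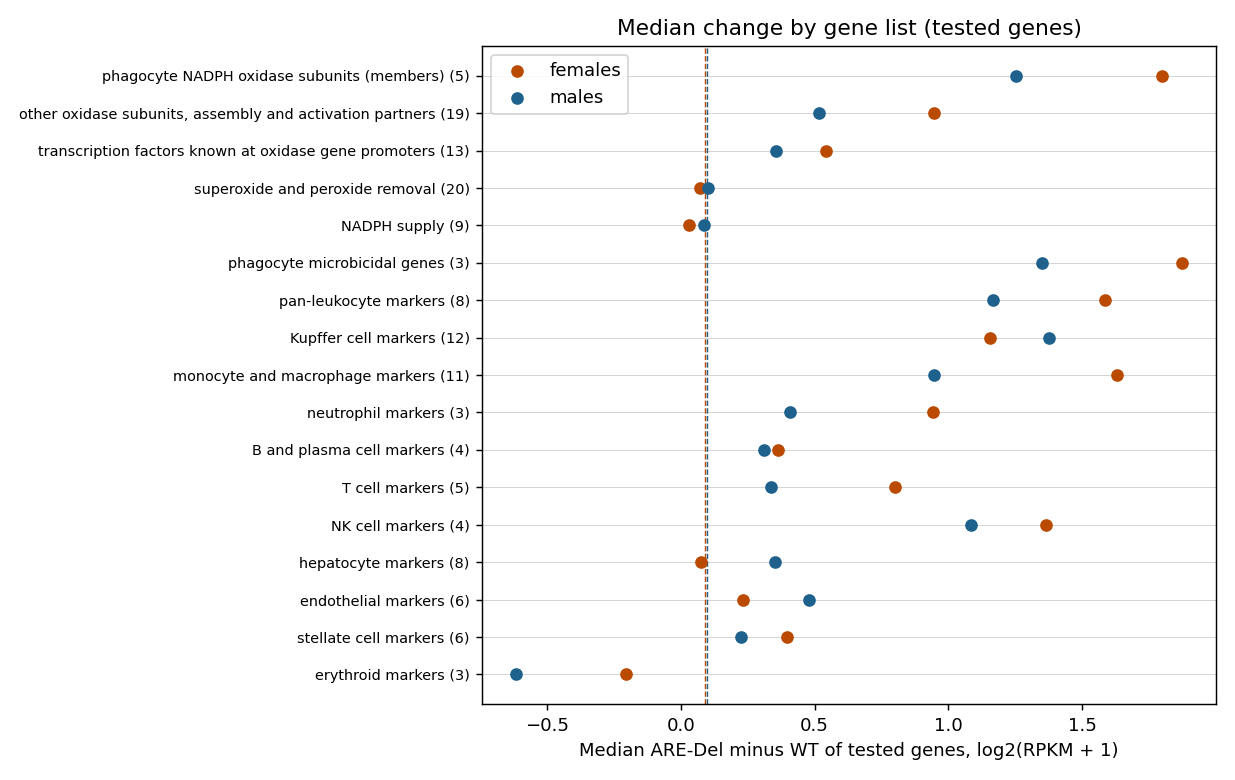
Median log2 change of RPKM + 1 between ARE-Del and WT (x axis) over the tested genes of each list (y axis, number tested in parentheses; lists with at least 3 tested genes), females and males. Dashed lines mark the median over all tested genes, 0.09 in females and 0.10 in males; the subunits lie at 1.80 and 1.25, beside pan-leukocyte markers at 1.58 and 1.17, while the superoxide and NADPH lists lie near the dashed lines.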

How the data were processed

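Liver RNA-seq was measured in 12 libraries, 3 in each of 4 groups taken from the genotype and sex labels. The values are RPKM deposited by the authors, 1 table for the series. The submitters' processing notes name Trimmomatic 0.30, TopHat2 2.0.8, Partek, GenomeStudio 6.6 and the mm9 build, without their roles; for counting, annotation, strand and shared reads, the sources used here give nothing. Read totals are unknown, so precision rests on the spread between libraries.

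From these, log2(RPKM + 1) was modelled by group with R 4.3.3 and its limma package 3.58.1 (12 libraries, 4 means, 8 residual degrees of freedom, eBayes with trend), for genes with at least 0.5 RPKM in at least 3 libraries, with Benjamini-Hochberg adjustment over all 10568 in each of 5 comparisons. The fit was tested on simulated data. Ratios were computed with numpy 2.4.6 and pandas 2.3.3 in Python 3.11.15 and drawn with matplotlib 3.10.9. Of 200 list entries, 172 matched by identifier and 9 by an older symbol; 18 were left out. Named beside the 5 subunits are their 3 closest profiles each, the nearest partners, and the 4 entries per pathway list with the largest female change among those called in either sex. Some genes that this rule names are not reported here. The subunits and the lists were chosen with earlier results of these data known. Alternatives were the pseudocount, the filter, scaling, the variance trend, the groups fitted, a replicate block and leaving out each library.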

Additional observations from a re-analysis of the deposited data

Results flagged for a closer look

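A difference between the sexes in the ARE-Del effect passed the test for 1 of the genes named for a profile close to a subunit. Ms4a7 and Itgax, named above as markers, were also called in that comparison. Asb2, the gene closest to Ncf4 in profile, was at 0.304 ± 0.0868 RPKM in WT and 2.79 ± 0.485 in ARE-Del females, and at 0.193 ± 0.0421 in WT and 1.01 ± 0.281 in ARE-Del males (SD, n = 3). It was at most 0.376 RPKM in any WT library and passed the filter only through ARE-Del libraries. Asb2 was also picked by its profile in these same 12 libraries. Its log2 change was larger in females by 0.788 ± 0.154 (limma adjusted p = 0.0496), with 1.53 in females and 0.74 in males. This call held in 3 of 19 other settings, and in the remainder the adjusted p ran from 0.0560 to 0.409. On log2(RPKM + 0.1) the difference was 0.95 ± 0.314 with an adjusted p of 0.409. The value lies just under the threshold, and 60 of 10568 tested genes were called in that comparison.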

How the results depend on the processing

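All 5 subunits were called higher in ARE-Del in females, in males, and in females against males among ARE-Del livers under each of 20 settings. Median-of-ratios scaling moved the median of all tested genes from 0.09 to -0.01 in females and from 0.10 to -0.01 in males, and quantile normalization to -0.07 and -0.05. The 18 correlations between same-numbered libraries ran from -0.291 to 0.245, with 5 over 0.1. Those between different-numbered libraries of different groups ran from -0.247 to 0.230. The numbers thus showed no evident pairing of the samples, though such correlations cannot exclude it. With a replicate block 32 genes were called in the interaction. That count, 60 as reported, was 14 with a pseudocount of 0.1, 30 without a filter, 32 with a filter at 1 RPKM, 39 without the variance trend, 106 after quantile normalization, and 0 (without male WT 1) to 74 without 1 library. Leaving out a library moved the genes called from 2272 to between 1259 (without male WT 1) and 2481 in males, from 1031 to between 525 (without male WT 1) and 1116 for sex among WT, and from 2370 to between 1367 (without female ARE-Del 3) and 2494 for sex among ARE-Del. Subunits called for sex among WT, 1 as reported, were 0 without a filter and 0 to 4 without 1 library, and those called in the interaction, 0 as reported, were 0 to 1. Pairs of subunits that passed, 0 as reported, were 8 with a pseudocount of 1 and 0 to 5 without 1 library. The cause of these shifts was not tested. Direction turned only for values that were not called as reported. Rac1 in males was -0.0753 (median-of-ratios) and -0.0590 (quantile), Rac1 by sex among WT -0.00404 and -0.00964, then -0.0111 to 0.13 without 1 library, and its interaction -0.00285 to 0.139 without 1 library. S100a8 in males ran from -0.102 to 0.259 without 1 library. With a pseudocount of 1 the log2 ratio of Cyba to Ncf4 was 0.623, Ncf1 to Ncf4 0.0810 and Ncf4 to Rac2 -0.459, and Cyba to Rac2 was -0.0104 with 0.01. The 8 pairs that passed with a pseudocount of 1 included turned ratios. Without 1 library, Cyba to Ncf4 ran from -0.057 to 0.067, Cyba to Rac2 from -0.0311 to 0.0683 and Ncf4 to Rac2 from -0.051 to 0.106. Low RPKM values, as in Ncf4, limit the precision of small differences.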
